A study of Mus musculus with 11 samples.

Results

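The genes described here encode the receptors on which the retina's own transmitters act: the subunits of ionotropic and metabotropic glutamate receptors, of GABA-A and GABA rho receptors, and of glycine receptors. They were chosen by gene symbol, without Grm6, and by a level of at least 10 normalized counts in at least 5 of the 11 libraries. 51 symbols matched, and 46 of them are members, out of 23284 genes in the deposited table and 14584 that passed the same filter and were tested. 45 of the 46 are receptor subunits. The remaining one, Grid2ip, encodes delphilin, a binding partner of delta receptors, and was caught by the name pattern alone. By family, 4 members encode AMPA receptor subunits, 5 kainate, 3 delta (with Grid2ip), 7 NMDA, 7 metabotropic glutamate, 12 GABA-A, 3 GABA rho and 5 glycine receptor subunits. All 46 were at or above the level minimum in all 11 libraries, and the lowest single value was 18.5 normalized counts, for Gabra5 in wild-type replicate 4. The 4 GABA-A genes that matched by name but were too low were Gabra6, with no read in any library, Gabrp, with 1 read in all, Gabre, and Gabrq, which had 3.50 to 8.34 normalized counts in knock-out libraries and 7.77 to 21.6 in wild-type libraries.

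The samples were retinas of mice at postnatal day 21. 6 libraries came from Nrl knock-out mice (Nrl-/-), and 5 came from wild-type mice. Nrl encodes the leucine zipper transcription factor that directs photoreceptor precursors to the rod fate, and mice without it are known to form cone-like photoreceptors in place of rods. The labels give no strain, sex or number of animals. Nothing in them states that each replicate is another animal, and the p-values therefore weigh the genotypes against a spread between libraries that may in part be technical. Values are normalized counts, which are the authors' read counts per gene divided by 1 size factor per library.

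In the retina, photoreceptors signal to bipolar and horizontal cells by glutamate, and bipolar cells signal by glutamate to amacrine and ganglion cells. OFF bipolar cells, amacrine cells and ganglion cells read glutamate through ionotropic receptors, whereas ON bipolar cells use the metabotropic receptor encoded by Grm6. Horizontal and amacrine cells answer with GABA or glycine, which open chloride channels assembled from GABA-A, GABA rho and glycine receptor subunits, the rho type being known from bipolar cell terminals.

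Nrl, the gene targeted in the knock-out, had 46.0 to 59.2 normalized counts in knock-out libraries and 34738 to 39490.0 in wild-type libraries, as the labels say. Libraries held 14907613 to 19877314 reads in the knock-out group and 16126210 to 20685840 in the wild-type group. The shallowest were knock-out replicate 2 and wild-type replicate 1. Pairs of libraries of the same genotype had Spearman correlations of 0.992 to 0.998, and pairs of different genotype 0.962 to 0.969. Markers of retinal cells were present in every library, and none was at 0. All 5 rod markers were lower, with summed levels of 1717 to 2250.1 normalized counts in knock-out libraries and 387490 to 445280 in wild-type libraries. All 5 cone markers were higher, with sums of 157850 to 196790 in knock-out libraries and 13547 to 16047 in wild-type libraries, and the level of markers of the cell types that carry most of these receptors is given with the receptor results below.

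Of the 46 members, 22 (47.8%) passed the test at an adjusted p under 0.05, against 46.3% of all tested genes (limma on log2 of the normalized count plus 1, Benjamini-Hochberg adjusted over 14584 genes). 7 members (15.2%) were higher in knock-out retina, against 23.6% of all tested genes, and 15 (32.6%) were lower, against 22.7%. At an adjusted p under 0.01, 4 members (8.70%) were higher and 8 (17.4%) lower, against 18.6% and 16.7% of all tested genes. Most differences were small. Only 4 members (8.70%) were at least 1.5-fold higher, Grik3, Gabra2 and Gabra5 among them, against 9.46% of all tested genes. Only 1 member (2.17%), Grin2d, was at least 1.5-fold lower, against 5.44%. The values of the 6 knock-out and 5 wild-type libraries did not overlap for 11 members (23.9%), against 30.9% of all tested genes. All 11 passed the test. The other 11 members that passed had overlapping groups.

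The count of lower members depended on how the libraries were scaled. With each library scaled to its total count, 13 members (28.3%) were called higher, against 40.2% of all tested genes, and 3 (6.52%) lower, against 11.7%. That scaling moved the median over all tested genes to a log2 fold change of 0.13, against -0.01 with the authors' size factors, and that of the 46 members to 0.03, against -0.11. 7 higher members, with Grik3, Gabra2, Gabra5, Grik1 and Grm7 among them, and 3 lower members (Grin1, Grm8 and Grin2d) were called in the same direction with size factors, library totals and TMM scaling in limma, and by edgeR and DESeq2. The other 12 lower members were not called with library totals, and Gabrb2 changed sign there. In the authors' deposited table, 7 members were higher and 15 lower at an adjusted p under 0.05. The lower genes were not all those of the limma test: between these 2 sources, Gabrr1 was called only by the authors and Grm4 only by limma. DESeq2, run here as an alternative, called both lower. In bulk tissue, fewer cells of a type and less RNA per cell cannot be told apart.

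**Figure D1:**
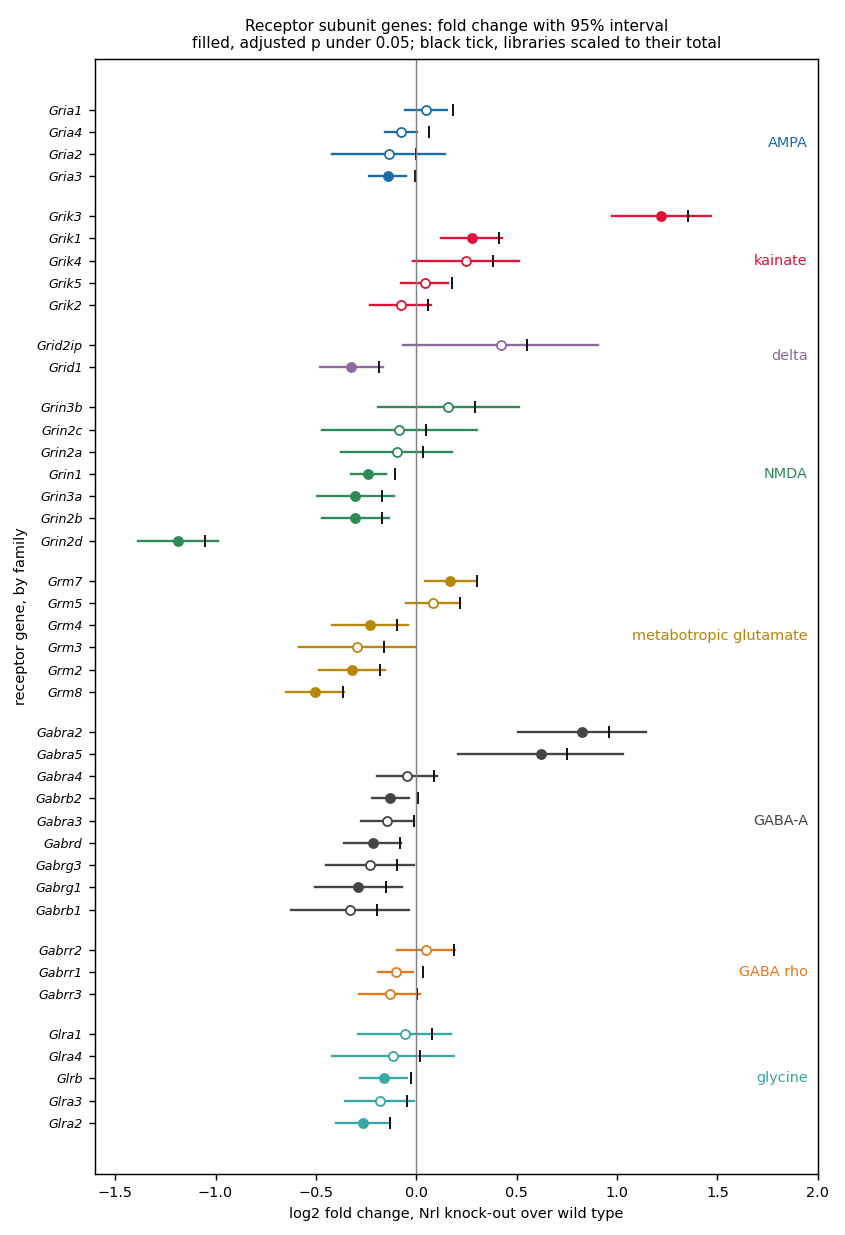
Log2 fold change of 41 of the members (Nrl knock-out over wild type, horizontal axis), grouped by receptor family down the page, with its 95% interval as a line. Filled points passed the test, and black ticks give the fold change with libraries scaled to their total; Grik3 at 1.22 and Grin2d at -1.19 lie farthest from 0, and the ticks lie to the right of the points.

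AMPA receptors carry fast glutamate transmission, and each of their 4 genes had a mean within about 1.10-fold of that in wild-type retina. Gria2 had between 3396 and 4813 normalized counts, with a median of 3836, in knock-out libraries, against 3117, 4446, 4896, 4643 and 4947 in wild-type libraries. Gria2 encodes GluA2, the subunit that keeps edited AMPA receptors impermeable to calcium, and its groups overlapped, with wild-type replicate 1 below every other library; its difference did not pass (log2 fold change -0.14, SE 0.13, adjusted p = 0.41). Without that library the log2 fold change of Gria2 was -0.26, the most negative of the values with 1 library left out, and passed. It also passed without the shallowest library of each genotype, an omission that includes the same wild-type replicate 1. Gria3 had between 1221 and 1356 normalized counts, with a median of 1290.4, in knock-out libraries, against 1444, 1515, 1357, 1365 and 1449 in wild-type libraries. The groups of Gria3, which encodes GluA3, did not overlap, and it was the member of the family that fell (log2 fold change -0.14, SE 0.04, adjusted p = 0.013), a fall that was not called with library totals. Gria1 had between 1342 and 1626 normalized counts, with a median of 1481, in knock-out libraries, against 1475, 1431, 1459, 1319 and 1443 in wild-type libraries. The groups of Gria1 (GluA1) overlapped in part, with a log2 fold change of 0.05, and Gria4 (GluA4) had a log2 fold change of -0.07. Neither Gria1 nor Gria4 passed. With library totals Gria1 was called higher, with a log2 fold change of 0.18 (adjusted p = 0.00389), and the sign of Gria4 turned. Gria4 had the highest level per kb of the AMPA genes, with 6.3 kb of exon against 15.5 kb for Gria2. By counts Gria2 was above Gria4, with means of 3980 in knock-out and 4410 in wild-type libraries, against 2560 and 2695.

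Kainate receptors, which carry glutamate signals into OFF bipolar cells, held the member with the largest rise. Of their 5 genes, 2 were higher (4 with library totals), with none lower. The shares of all tested genes called higher were 23.6% and, with library totals, 40.2%. Grik3, which encodes GluK3, had 910.4, 763, 726, 748, 1195 and 791 normalized counts in knock-out replicates 1 to 6, against 409.7, 369, 360.1, 361 and 311 in wild-type replicates 1 to 5. Every knock-out library lay above every wild-type library, and knock-out replicate 5 was the highest. Grik3 was 2.33-fold higher in knock-out retina (log2 fold change 1.22, SE 0.11, adjusted p = 4.57e-07, 95% interval 0.97 to 1.47). Leaving out any 1 library kept its log2 fold change between 1.12 and 1.26. Grik1 had between 2063 and 2727 normalized counts, with a median of 2490.2, in knock-out libraries, against 1717, 2066, 2089, 2258 and 2048 in wild-type libraries. Grik1 encodes GluK1, a kainate subunit known from OFF cone bipolar cells, and it rose by 1.21-fold, with groups that overlapped because knock-out replicate 1 lay within the wild-type range (log2 fold change 0.27, SE 0.07, adjusted p = 0.00454). Grik2, Grik4 and Grik5 did not pass, with log2 fold changes of -0.08, 0.25 and 0.04. With library totals Grik4 and Grik5 were called higher, with 0.38 and 0.18, and the sign of Grik2 turned.

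The 250 bases before the start of 4 members that changed by at least 1.5-fold are shown to place these genes on the genome (RefSeq sequences, build GRCm38.p6, gene strand, 5′ to 3′). Each run is the stretch upstream of the transcription start: Grik3 at chr4:125490446-125490695 on the plus strand, Grin2d at chr7:45866682-45866931 on the minus strand, Gabra2 at chr5:71095850-71096099 on the minus strand and Gabra5 at chr7:57510060-57510309 on the minus strand. Capitals mark TAATCC, a core motif of the photoreceptor factor Crx, or TGCTGA, a core element of sites that Nrl binds, searched on both strands with no overlap between the 2 motifs, so that a match on the other strand reads GGATTA or TCAGCA.
Grik3: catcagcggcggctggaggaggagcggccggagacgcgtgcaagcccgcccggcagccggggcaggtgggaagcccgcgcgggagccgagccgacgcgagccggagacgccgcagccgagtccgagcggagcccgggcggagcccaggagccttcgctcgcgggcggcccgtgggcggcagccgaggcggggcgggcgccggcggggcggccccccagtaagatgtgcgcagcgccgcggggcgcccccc
Grin2d: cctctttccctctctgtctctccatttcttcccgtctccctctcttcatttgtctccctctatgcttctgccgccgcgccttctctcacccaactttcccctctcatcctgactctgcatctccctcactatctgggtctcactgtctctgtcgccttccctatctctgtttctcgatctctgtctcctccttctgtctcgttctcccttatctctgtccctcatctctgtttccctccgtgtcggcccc
Gabra2: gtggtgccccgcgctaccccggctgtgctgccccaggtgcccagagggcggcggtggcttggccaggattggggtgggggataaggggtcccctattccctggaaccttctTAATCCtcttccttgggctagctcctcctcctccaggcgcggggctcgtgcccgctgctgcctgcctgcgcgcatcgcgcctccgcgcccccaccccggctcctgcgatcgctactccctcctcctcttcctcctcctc
Gabra5: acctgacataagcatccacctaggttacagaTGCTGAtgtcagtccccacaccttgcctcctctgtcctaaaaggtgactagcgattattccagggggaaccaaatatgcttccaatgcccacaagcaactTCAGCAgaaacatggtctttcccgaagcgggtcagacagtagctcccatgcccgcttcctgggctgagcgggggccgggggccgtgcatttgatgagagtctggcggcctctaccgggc
The Grik3 window held neither motif and 82.0% G and C, against a median of 52.4% over all windows, and the Grin2d window held neither motif. The Gabra2 window held 1 TAATCC, and the Gabra5 window held TGCTGA or its reverse complement at 2 places. Among the 38 windows of the 30 members with a sequence, TAATCC was in 5.26% and TGCTGA in 21.1%, against 6.25% and 16.1% of all 32851 windows of that length. These matches are descriptions of the letters and not of binding.

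Delta receptors are related to ionotropic glutamate receptors but act mainly as synapse organisers that bind cerebellins. Grid1 had between 301 and 404 normalized counts, with a median of 339, in knock-out libraries, against 395, 424, 421, 468 and 441 in wild-type libraries. Grid1, which encodes GluD1, was lower by 1.25-fold, with knock-out replicate 5 the only library inside the wild-type range (log2 fold change -0.32, SE 0.07, adjusted p = 0.00151), and it was not called with library totals. Grid2ip had between 42.0 and 87.9 normalized counts, with a median of 76.3, in knock-out libraries, against 27.6, 56.2, 64.1, 60.0 and 67.1 in wild-type libraries. Grid2ip had overlapping groups, in which wild-type replicate 1 was far below the others, and did not pass (log2 fold change 0.42, SE 0.23, adjusted p = 0.147). Without wild-type replicate 1 its log2 fold change was 0.19 and did not pass. It passed without knock-out replicate 2, with a log2 fold change of 0.57, and without the shallowest library of each genotype, with 0.34. Those shallowest libraries were the same knock-out replicate 2 and wild-type replicate 1.

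NMDA receptors need glutamate together with glycine or D-serine. In knock-out retina 4 of their 7 genes were lower (2 with library totals), with none higher. Among all tested genes 22.7% were lower, and 11.7% with library totals. Grin2d, which encodes the GluN2D subunit, had 131, 93.3, 118, 96.4, 109 and 107 normalized counts in knock-out replicates 1 to 6, against 225, 269, 252, 241 and 254 in wild-type replicates 1 to 5. The groups were far apart, the highest knock-out library being below the lowest wild-type library. Grin2d fell by a factor of 2.28 (log2 fold change -1.19, SE 0.09, adjusted p = 4.45e-09, 95% interval -1.39 to -0.99), and with 1 library left out its log2 fold change stayed between -1.24 and -1.15. Grin1 had between 1263 and 1361 normalized counts, with a median of 1330.0, in knock-out libraries, against 1495, 1672, 1574, 1556 and 1534 in wild-type libraries. Grin1 encodes GluN1, the subunit that every NMDA receptor contains, and it fell by 1.18-fold with groups that did not overlap (log2 fold change -0.24, SE 0.04, adjusted p = 9.54e-05). With library totals its log2 fold change was -0.10 (adjusted p = 0.0475). 13.5% of the exon length of Grin1 and 9.66% of that of Grin2d lie opposite exons of other genes (Grin1os and Gm45441), and whether counting used the strand of the reads is not given in the sources used here.

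Grin2b had between 142 and 163 normalized counts, with a median of 152, in knock-out libraries, against 202, 168, 188, 183 and 197 in wild-type libraries. Grin2b encodes GluN2B, and it fell with groups that did not overlap (log2 fold change -0.30, SE 0.08, adjusted p = 0.00402). Grin2a had between 40.5 and 59.2 normalized counts, with a median of 50.6, in knock-out libraries, against 58.7, 55.2, 54.4, 57.8 and 45.1 in wild-type libraries. Grin2a encodes GluN2A, and its groups overlapped without passing (log2 fold change -0.10, SE 0.13, adjusted p = 0.574). Grin3a, one of the glycine-binding GluN3 genes, averaged 121 ± 7.90 normalized counts in knock-out libraries and 149.8 ± 15.7 in wild-type libraries and fell (log2 fold change -0.30, SE 0.09, adjusted p = 0.0109). Grin2c and Grin3b did not pass, with log2 fold changes of -0.09 and 0.16; 32.1% of the exon length of Grin3b lies opposite Tmem259. The falls of Grin2b and Grin3a were not called with library totals.

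The relative make-up of the GluN2 subunits was taken per kb of exon, as each gene's share of the summed level. The order depends on exon length, 24.8 kb for Grin2b, 6.66 kb for Grin2d and 5.04 kb for Grin2c. By counts, Grin2b, Grin2d and Grin2c averaged 152, 109 and 62.4 in knock-out libraries, against 188, 248 and 65.3 in wild-type libraries. Grin2d made up 43.6% ± 3.4 (SD, n = 6) of the GluN2 level in knock-out retina and 61.3% ± 3.9 (SD, n = 5) in wild-type retina. The knock-out shares lay between 39.2% and 47.9%, all under the wild-type shares of 56.5% to 66.8%. Grin2c made up 32.4% ± 5.0 in knock-out retina and 21.2% ± 3.7 in wild-type retina, and Grin2b made up 16.4% ± 1.9 in knock-out retina and 12.5% ± 1.3 in wild-type retina. Among the kainate genes, Grik3 made up 11.2% ± 1.9 in knock-out retina and 5.61% ± 0.85 in wild-type retina, while Grik1 and Grik5 remained the main subunits, with 42.9% and 40.1% in knock-out retina and 41.8% and 45.8% in wild-type retina. A share moves when any member of its sum moves, so these percentages restate the levels of each family.

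**Figure D2:**
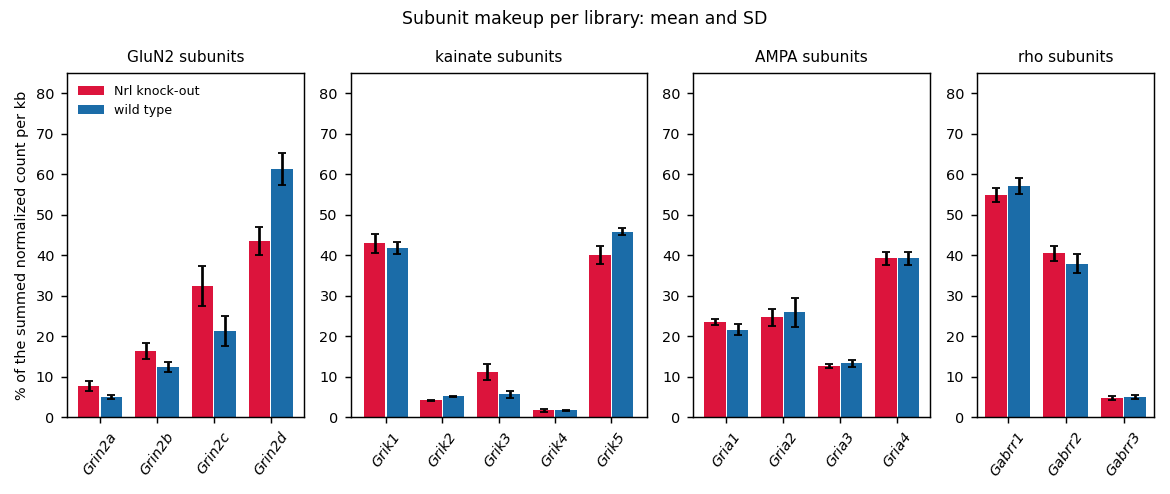
Share of each subunit gene in the summed normalized count per kb of its set (percent, vertical axis), as mean bars with SD, Nrl knock-out (6 libraries) beside wild type (5 libraries). Grin2d was 43.6% in knock-out retina against 61.3% in wild-type retina of the GluN2 sum, and Gria4 was 39.2% in both genotypes of the AMPA sum. The shares depend on the exon lengths used, and by counts Gria2 was above Gria4.

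Metabotropic glutamate receptors signal through G proteins, with Grm5 in the group that raises calcium and Grm2, Grm3, Grm4, Grm7 and Grm8 in the groups that lower cyclic AMP. 4 of the 7 genes were lower in knock-out retina and 1 was higher, against 1 lower and 2 higher with library totals. For all tested genes the shares were 22.7% lower and 23.6% higher, against 11.7% and 40.2% with library totals. Grm8, which encodes mGluR8, a presynaptic receptor, had 592, 536, 454, 485, 477 and 468 normalized counts in knock-out replicates 1 to 6, against 764, 712, 690.2, 734 and 649.9 in wild-type replicates 1 to 5. All knock-out libraries lay below all wild-type libraries, and the fall was 1.42-fold (log2 fold change -0.50, SE 0.07, adjusted p = 6.99e-06, 95% interval -0.65 to -0.36). Grm5 had between 714 and 929.7 normalized counts, with a median of 763, in knock-out libraries, against 674, 771, 728, 747 and 756 in wild-type libraries. Grm5, which had the highest mean count of the family, overlapped between groups, and knock-out replicate 5 was above every other library (log2 fold change 0.08, SE 0.06, adjusted p = 0.309). Without that library its log2 fold change was 0.03 and did not pass, and with library totals Grm5 was called higher, with 0.22 (adjusted p = 0.0111).

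Grm2, of the group that lowers cyclic AMP, fell with a log2 fold change of -0.32 (adjusted p = 0.00259), and Grm4, a presynaptic receptor like Grm8, with -0.23 (adjusted p = 0.0431). Grm7, also presynaptic, was the one that rose, by 0.17 on the log2 scale (adjusted p = 0.0274). Grm3 had a log2 fold change of -0.30 and did not pass. Grm4 was not called in the authors' deposited table. The call of Grm4 was lost by edgeR, with library totals, with TMM scaling, with no filter on low values, at an adjusted p under 0.01, without knock-out replicates 3 and 6 together, and without knock-out replicate 1 or 3 or wild-type replicate 2, 3, 4 or 5, with log2 fold changes between -0.27 and -0.18 over the single omissions. That of Grm7 was lost at an adjusted p under 0.01, without the shallowest library of each genotype, and without knock-out replicate 5 or wild-type replicate 1 or 4, with values between 0.13 and 0.20 over the single omissions. With library totals, Grm8 was the only metabotropic gene still called lower.

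GABA-A receptors are chloride channels built from alpha, beta and gamma or delta subunits, and they held 3 of the 4 members that rose by at least 1.5-fold. Of their 12 genes, 3 were higher and 3 lower, against 4 higher and none lower with library totals. The shares over all tested genes were 23.6% and 22.7%, against 40.2% and 11.7% with library totals. Gabra2, which encodes the alpha2 subunit, had 723, 759, 475, 799, 687 and 455 normalized counts in knock-out libraries, against 329, 378, 348, 338 and 399 in wild-type libraries. Knock-out replicates 3 and 6 were nearer to the wild-type range than the other 4, but still above it. The rise of Gabra2 was 1.77-fold on average (log2 fold change 0.82, SE 0.15, adjusted p = 0.000434, 95% interval 0.51 to 1.14). Gabra5, which encodes the alpha5 subunit and is the GABA-A member with the fewest counts, had 44.4, 37.3, 45.3, 23.2, 43.2 and 30.4 normalized counts in knock-out libraries, against 29.9, 22.1, 25.2, 18.5 and 22.0 in wild-type libraries. Its groups overlapped, since knock-out replicate 4 lay below wild-type replicates 1 and 3, and the rise was 1.54-fold (log2 fold change 0.62, SE 0.20, adjusted p = 0.014, 95% interval 0.21 to 1.03).

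Gabra2 mRNA is known to be reduced in the C57BL/6J strain by an intronic deletion, and so is mRNA of Nnt, a mitochondrial transhydrogenase gene with a deletion of exons in that strain. Nnt, looked at after the values of Gabra2 were seen, had 342, 497, 462, 451, 363 and 464 normalized counts in knock-out libraries, against 218, 247, 227, 253 and 229 in wild-type libraries (log2 fold change 0.86, SE 0.09, adjusted p = 2.68e-07). Among knock-out libraries, Nnt was lowest in replicates 1 and 5, and Gabra2 in replicates 3 and 6. No conclusion about strain was drawn from these replicates. The labels give no strain, and the part of strain background in the difference of Gabra2 was not tested.

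**Figure D3:**
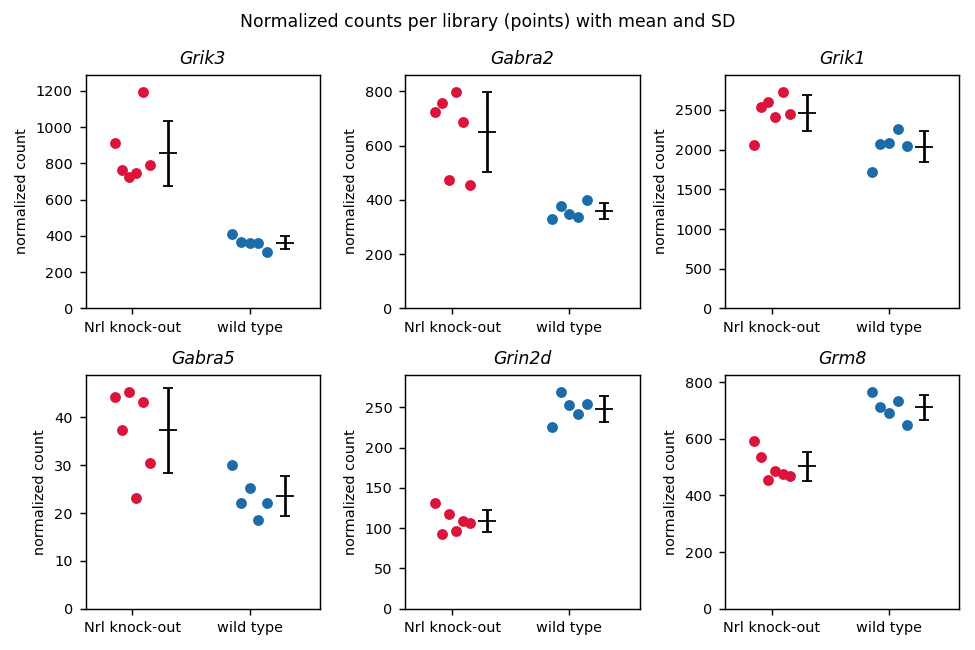
Normalized count per library (vertical axis from 0) of 6 members, Nrl knock-out (6 points) left of wild type (5 points), with mean and SD beside them. Grik3, Gabra2, Grin2d and Grm8 show no overlap between groups, and Grik1 and Gabra5 overlap.

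Gabrd, which encodes the delta subunit of receptors outside synapses, averaged 297 ± 22.1 normalized counts in knock-out libraries and 345 ± 19.3 in wild-type libraries and fell (log2 fold change -0.22, SE 0.07, adjusted p = 0.0136). Gabrg1 and Gabrb2, which encode gamma1 and beta2, also fell, with log2 fold changes of -0.29 (adjusted p = 0.0274) and -0.13 (adjusted p = 0.0223). Gabra3, Gabra4, Gabrb1 and Gabrg3 had log2 fold changes between -0.33 and -0.05 and did not pass. Gabra3 passed without knock-out replicate 2 or 4 or wild-type replicate 3 or 5 (between -0.17 and -0.09 over the single omissions), Gabrb1 without knock-out replicate 4 or wild-type replicate 5 (between -0.40 and -0.24), and Gabrg3 without wild-type replicate 5 (between -0.29 and -0.19). None of the 3 falls was called with library totals. The call of Gabrb2 was also lost without knock-out replicate 3 or 6 or wild-type replicate 1 or 2 (log2 fold changes between -0.14 and -0.11 over the single omissions), and that of Gabrg1 without knock-out replicate 5 or 6 or wild-type replicate 1 or 2 (between -0.33 and -0.23).

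On the scale of normalized counts per kb of exon, Gabrr1 and Gabrr2 stood above the AMPA, kainate, NMDA, metabotropic and glycine receptor genes described here in both genotypes. This order depends on exon length, 2.29 kb for Gabrr1 against 15.5 kb for Gria2. By counts Gria2 was above Gabrr1, with means of 3980 in knock-out and 4410 in wild-type libraries, against 2018 and 2166. Gabrr1 had 883 ± 38.8 normalized counts per kb in knock-out libraries and 947 ± 30.5 in wild-type libraries, and Gabrr2 had 651 ± 47.6 normalized counts per kb in knock-out libraries and 631 ± 68.6 in wild-type libraries. Gria4 and Glrb followed among those genes, with 406 ± 14.7 and 377 ± 26.2 normalized counts per kb in knock-out retina, against 427 ± 9.78 and 422 ± 33.8 in wild-type retina, where these 2 lay within 1 SD of each other. At the other end, Grin2a had 2.83 ± 0.364 normalized counts per kb in knock-out libraries and 3.02 ± 0.303 in wild-type libraries. Among the AMPA genes, Gria4 made up 39.2% ± 1.6 of the level in knock-out retina and 39.2% ± 1.7 in wild-type retina. The 46 members together held 0.261% ± 0.0096 (SD, n = 6) of the reads of knock-out libraries and 0.230% ± 0.0060 (SD, n = 5) of those of wild-type libraries.

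GABA receptor genes lie next to each other in groups on mouse chromosomes, and the fold changes of neighbours differed in sign on chromosomes 4, 5 and 7. Among the neighbours of unlike sign given here, both passed only for Gabrg1 and Gabra2, and Gabrg1 did not with library totals. On chromosome 5 the order was Gabrg1, Gabra2, Gabra4 and Gabrb1, with 1 other protein-coding gene between Gabra2 and Gabra4, and their log2 fold changes were -0.29, 0.82, -0.05 and -0.33; that of Gabra4 turned with library totals. On chromosome 7, Gabra5 rose by 0.62 while its neighbour Gabrg3 had -0.23 and did not pass. On chromosome 4, Gabrr2 and Gabrr1 had 0.05 and -0.10, neither of which passed; that of Gabrr1 turned with library totals.

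**Figure D4:**
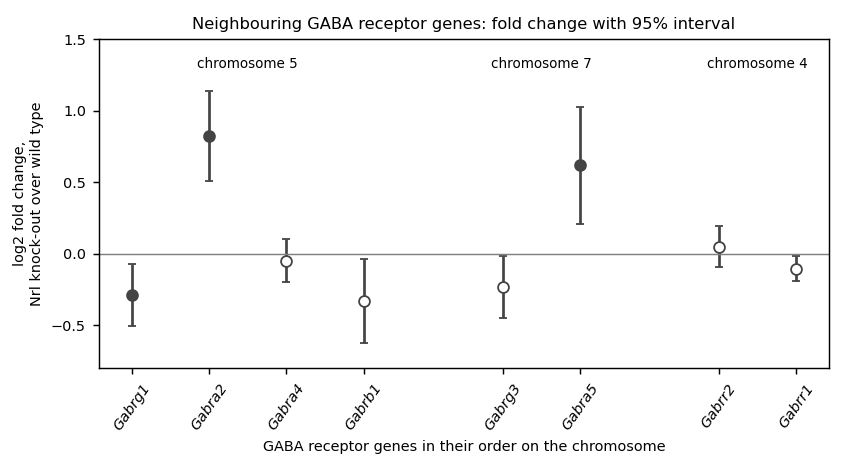
Log2 fold change (Nrl knock-out over wild type, vertical axis) with 95% interval of GABA receptor genes in their order along 3 mouse chromosomes, filled where the test was passed. On chromosome 5 only Gabra2 lies above 0 (with library totals Gabra4 does too), and on chromosome 7 Gabra5 lies above 0 while Gabrg3 lies below.

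The GABA rho receptors, which form the slow GABA channels of bipolar cell terminals, had no gene that passed. With library totals 1 was higher, as were 40.2% of all tested genes. Gabrr1 had between 1884 and 2138 normalized counts, with a median of 2007, in knock-out libraries, against 2128, 2179.8, 2068, 2248 and 2206 in wild-type libraries. Gabrr1 encodes rho1, and its groups overlapped in part (log2 fold change -0.10, SE 0.04, adjusted p = 0.0519). Gabrr1 was called lower in the authors' deposited table. Gabrr2 had between 1229 and 1492 normalized counts, with a median of 1361, in knock-out libraries, against 1115, 1367, 1284, 1358 and 1512 in wild-type libraries. Gabrr2, for rho2, overlapped widely (log2 fold change 0.05, SE 0.07, adjusted p = 0.586). Gabrr3 had between 272 and 358 normalized counts, with a median of 318, in knock-out libraries, against 351, 325, 377, 352 and 333 in wild-type libraries. Gabrr3, for rho3, had the largest difference of the family (log2 fold change -0.13, SE 0.07, adjusted p = 0.148). With library totals Gabrr2 was called higher, with a log2 fold change of 0.19 (adjusted p = 0.0396), and the sign of Gabrr1 and Gabrr3 turned. Gabrr1 passed in DESeq2, with a minimum of 50 counts, without the shallowest library of each genotype, and without knock-out replicate 2 or 4 or wild-type replicate 3, with log2 fold changes between -0.12 and -0.08 over the single omissions.

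Glycine receptors pair alpha subunits with the beta subunit, which anchors them to gephyrin. Glrb had between 1599 and 1885 normalized counts, with a median of 1760.2, in knock-out libraries, against 2229, 1978, 1859.8, 1842 and 1915 in wild-type libraries. Glrb, the beta gene and the glycine receptor gene with the most counts, fell by 1.12-fold with overlapping groups (log2 fold change -0.16, SE 0.06, adjusted p = 0.0245). Glra2 had between 396 and 449 normalized counts, with a median of 424, in knock-out libraries, against 571, 515, 512, 499 and 449 in wild-type libraries. Glra2, an alpha gene prominent in immature neurons, fell by 1.20-fold, and knock-out replicate 2 and wild-type replicate 5 were at nearly the same level (log2 fold change -0.27, SE 0.06, adjusted p = 0.00241). Glra1 had between 187 and 280.2 normalized counts, with a median of 237, in knock-out libraries, against 205, 226, 267, 259.7 and 256 in wild-type libraries. Glra1 overlapped throughout (log2 fold change -0.06, SE 0.11, adjusted p = 0.699). Glra3 and Glra4 did not pass, with log2 fold changes of -0.18 and -0.12, although Glra3 passed without knock-out replicate 4 or wild-type replicate 2 or 3 (between -0.22 and -0.13 over the single omissions). The call of Glrb was lost without knock-out replicate 3 or 6 or wild-type replicate 1 or 2 (log2 fold changes between -0.19 and -0.12 over the single omissions), and neither Glrb nor Glra2 was called with library totals.

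Subunit pairs were compared as log2 ratios within each library, which do not depend on how libraries are scaled beyond the added 1, with p-values adjusted over 5 pairs. None of the pairs described here passed. The log2 ratio of Grin2b to Grin2a was 1.57 ± 0.21 (SD, n = 6) in knock-out retina and 1.78 ± 0.20 (SD, n = 5) in wild-type retina, a difference of -0.21 (exact two-sided permutation test, p = 0.149, adjusted 0.249). That of Gria1 to Gria2 was -1.42 ± 0.14 in knock-out retina and -1.61 ± 0.30 in wild-type retina, a difference of 0.19 (exact permutation p = 0.221, adjusted 0.271). Glra2 to Glra1 differed by -0.21 (exact permutation p and adjusted p = 0.271), and Gabrr1 to Gabrr2 by -0.15 (exact permutation p = 0.0779, adjusted 0.195). The smallest p this exact test could give was 0.002165. The Grin2b to Grin2a log2 ratio differed by -0.29 and passed without knock-out replicate 5, and the Gria1 to Gria2 log2 ratio differed by 0.32 and passed without wild-type replicate 1.

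Genes that work with these receptors were followed by lists, to be read beside the 23.6% of all tested genes that were higher and the 22.7% lower. Of 13 auxiliary subunits of AMPA and kainate receptors, 2 were higher and 6 lower in knock-out retina, with a median log2 fold change of -0.19, against -0.01 for all tested genes. Shisa6, an AMPA receptor auxiliary protein, averaged 427 ± 46.8 normalized counts in knock-out libraries and 314 ± 20.5 in wild-type libraries and rose (log2 fold change 0.44, SE 0.08, adjusted p = 9e-05), and Gsg1l, another one, averaged 269 ± 14.5 normalized counts in knock-out libraries and 347 ± 31.9 in wild-type libraries and fell (log2 fold change -0.36, SE 0.07, adjusted p = 0.000419). Of 17 tested genes of the excitatory postsynaptic scaffold, 2 were higher and 7 lower, with a median of -0.16. Shank2, a large scaffold protein, averaged 2306 ± 225 normalized counts in knock-out libraries and 1488 ± 166 in wild-type libraries and rose (log2 fold change 0.63, SE 0.08, adjusted p = 4.61e-06), whereas Homer3, which links metabotropic receptors to the scaffold, averaged 243 ± 16.3 normalized counts in knock-out libraries and 361 ± 24.0 in wild-type libraries and fell (log2 fold change -0.57, SE 0.07, adjusted p = 1.41e-06).

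Of 8 tested genes for inhibitory receptor scaffold and assembly, 2 were higher and 3 lower, with a median of -0.10. The higher ones were Gabarap, a GABA-A receptor binding protein of the autophagy-related family, with 2402 ± 155 normalized counts in knock-out libraries and 1524 ± 86.1 in wild-type libraries (log2 fold change 0.66, SE 0.05, adjusted p = 3.02e-09), and its relative Gabarapl1, with 8617 ± 733 normalized counts in knock-out libraries and 6427 ± 417 in wild-type libraries (log2 fold change 0.42, SE 0.06, adjusted p = 7.47e-06). Of the GABA-B receptor genes, Gabbr2 averaged 1075 ± 31.9 normalized counts in knock-out libraries and 1320.5 ± 74.0 in wild-type libraries and fell (log2 fold change -0.30, SE 0.05, adjusted p = 2.98e-05), and Gabbr1 did not pass. Of 18 genes for transmitter transporters and synthesis, 5 were higher and 8 lower, with a median of -0.16. The largest rises were those of the glutamate transporter genes Slc1a2, with 23488 ± 930.0 normalized counts in knock-out libraries and 9379 ± 375 in wild-type libraries (log2 fold change 1.32, SE 0.04, adjusted p = 1.52e-15), and Slc1a7, with 5136 ± 495 normalized counts in knock-out libraries and 2648 ± 190.3 in wild-type libraries (log2 fold change 0.95, SE 0.06, adjusted p = 5.69e-10). Gad1 and Gad2, which make GABA, and Slc32a1, which loads GABA and glycine into vesicles, fell, with log2 fold changes of -0.35, -0.33 and -0.36. These 3 genes were named for their role. With library totals, the counts higher and lower were 2 and 4 for the auxiliary subunits and 4 and 5 for the excitatory scaffold. They were 3 and 1 for the inhibitory scaffold, and 6 and 4 for transporters and synthesis. The shares of all tested genes were then 40.2% and 11.7%.

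Markers of several retinal cell types differed between the groups beside the receptor genes. Of all tested genes, 23.6% were higher and 22.7% lower, against 40.2% and 11.7% with library totals. 6 of 7 amacrine markers were lower, none higher, with summed levels of 10896 to 12222 normalized counts in knock-out libraries and 12652 to 13683 in wild-type libraries. 7 of 8 ganglion cell markers were lower, none higher, with sums of 15718 to 20750 in knock-out libraries and 21045 to 26277 in wild-type libraries. Of 7 bipolar markers, 4 were higher and 1 lower, with sums of 28370 to 34286 in knock-out libraries and 22327 to 27317 in wild-type libraries. This sum was not shared evenly. Cabp5, with the largest change, averaged 6765 ± 349 in knock-out libraries and 1957 ± 58.7 in wild-type libraries. Prkca, the lower one, averaged 6321 ± 579 and 9860 ± 471. Of 5 horizontal cell markers, 2 were higher and 1 lower, with sums of 5229.8 to 6164.6 in knock-out libraries and 4883.3 to 5209.4 in wild-type libraries. Of 6 Müller glia markers, 3 were higher and 1 lower, with sums of 61120.0 to 69494 in knock-out libraries and 68435 to 71997 in wild-type libraries. Glul, the lower one, made up most of that sum, with 40148 ± 1936 in knock-out libraries and 48307 ± 1213 in wild-type libraries. All 5 microglia markers were higher, with sums of 2883.9 to 4268.6 in knock-out libraries and 725.5 to 1027.8 in wild-type libraries. With library totals, 3 amacrine and 5 ganglion cell markers were called lower and none higher, while 5 bipolar, 3 horizontal cell and 4 Müller glia markers were higher and 1 of each lower. The part of these cell types in the receptor differences was not tested.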

How the data were processed

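Whole-retina mRNA libraries of 6 Nrl knock-out and 5 wild-type samples at postnatal day 21 were compared, grouped by their titles. The authors deposited 1 table whose 11 library columns hold a signal, the read counts per gene divided by 1 size factor per library, together with their own log2 fold change and adjusted p-value, per the file headers. TopHat2 2.1.1, HTSeq 0.6.0, DESeq and the build mm9 are listed, without their roles, per the submitters' processing notes. The annotation was not given in the sources used here and nor was the strand setting, so reads of overlapping or antisense genes are uncertain. Per the labels' protocols, reads were stranded and single-end, 50 bases long.

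The design named limma for normalized values and edgeR for raw counts; as the table holds normalized values, limma 3.58.1 in R 4.3.3 (trend, robust) was fitted to log2(normalized count + 1) of all 14584 genes with at least 10 normalized counts in at least 5 libraries, with genotype as the only term. Tests are two-sided, with a threshold of 0.05 on the p adjusted by Benjamini and Hochberg's method. Because of the added 1, the fold changes of genes with few reads are understated. 100% of values in each library were whole multiples of 1 read to within 0.001 of a read, so reads were recovered; on them edgeR 4.0.16 called 3518 genes higher and 3271 lower, and DESeq2 1.42.0 called 3462 and 3321. The steps were tested on simulated data. Levels per kb use exon lengths of GENCODE vM21 (GRCm38), a later build than the one the reads were counted on. 5 members, and 1 of the 5 subunit pairs tested, count in all totals and adjustments but are not reported here singly. Upstream sequences and gene order come from RefSeq tables.

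The members and lists were chosen with earlier results of these data known. Named genes were members called with at least a 1.5-fold change, the member with the largest change and that with the highest mean count in each family, the genes of each pair, and, for the lists, the 2 with the largest change among those called; values of all libraries are printed for the first of these and Grm8, and for the rest the lowest, median and highest of the 6 knock-out libraries. Alternatives were edgeR and DESeq2, library-total and TMM scaling, other pseudocounts and filters, a stricter threshold, the replicate number as a block, and leaving out libraries.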

Additional observations from a re-analysis of the deposited data

Results flagged for a closer look

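8 of the 102 sets of values examined (each member and each pair ratio in each genotype) held 1 library that stood apart from the others of its genotype, by the gap to its nearest neighbour as a share of the whole range; chance gives about 1 in 20. 4 of the 8 came from wild-type replicate 1, among them Gria2 and the Gria1 to Gria2 ratio, which share the Gria2 values. The sets are therefore not independent, and their number was not tested against chance. In the knock-out group, Grm5 was highest in replicate 5, with 929.7 normalized counts, against 714 to 789.5 in the others, a gap of 0.648 of the range. Grm2 was highest in knock-out replicate 2, with 356 against 273 to 304, a gap of 0.626. The log2 ratio of Grin2b to Grin2a was highest in knock-out replicate 5, at 1.98 against 1.37 to 1.57, a gap of 0.685.

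In the wild-type group, Gria2 was lowest in replicate 1, with 3117 normalized counts against 4446 to 4947, a gap of 0.726, and the log2 ratio of Gria1 to Gria2 was highest there, at -1.08 against -1.81 to -1.63, a gap of 0.755. Gabra3 was highest in wild-type replicate 1, with 1406 against 1127 to 1188, a gap of 0.781, and Grid2ip was lowest there, with 27.6 against 56.2 to 67.1, a gap of 0.723. Gria1 was lowest in wild-type replicate 4, with 1319 against 1431 to 1475, a gap of 0.722.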

How the results depend on the processing

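Of 940 values of 41 single members under alternatives, 848 kept their direction and side of the threshold, 51 lost a call, 25 gained one and 16 changed sign. Grik3, Gabra2, Grik1, Grin1, Grm8 and Grin2d were called in the same direction under each alternative run. With libraries scaled to their total, 13 members were higher and 3 lower, against 7 and 15, and 5861 tested genes were higher and 1711 lower, against 3448 and 3304. At an adjusted p under 0.01, 4 members (8.70%) were higher and 8 (17.4%) lower, against 18.6% and 16.7% of all tested genes. Without knock-out replicates 3 and 6, left out after their Gabra2 level was seen, 9 members were lower. With library totals the log2 fold change changed sign for Gabra4 (0.089), Glra1 (0.0772), Gria4 (0.0615), Grik2 (0.0582), Grin2c (0.0481), Grin2a (0.0353), Gabrr1 (0.0338), Glra4 (0.0168), Gabrb2 (0.0068) and Gabrr3 (0.0032), of which Gabrb2 alone had been called. Without knock-out replicates 3 and 6, Grik5 was at -0.0191, and without the shallowest library of each genotype Grin2c was at 0.0347. Over single omissions, the log2 fold change ran from -0.0116 to 0.0981 for Gabrr2, from -0.12 to 0.0036 for Glra1 and from -0.17 to 0.0599 for Grin2c, and the counts of members from 5 to 8 higher and from 12 to 19 lower. Without the shallowest library of each genotype, which leaves out wild-type replicate 1, the Gria1 to Gria2 log2 ratio differed by 0.27 and passed. Over single omissions, Gria1 to Gria2 ran from 0.14 to 0.32, passing without wild-type replicate 1, and Grin2b to Grin2a from -0.29 to -0.12, passing without knock-out replicate 5. The cause of these changes was not tested. Samples with the same number did not deviate together (correlations of 0.147, 0.050, 0.101, -0.131 and 0.225), so the numbers were not taken to pair them; with the replicate block 8 members were higher and 14 lower, with Gabrb2 lost. Gabra5 had the fewest reads of the members, 233 over the knock-out libraries and 114 over the wild-type libraries, which limits its precision.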

Other observations

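Grm6, which matches the names and was left out by the rule, had 2233 to 3560 normalized counts in knock-out libraries and 1556 to 3226 in wild-type libraries. Among the members, Grik3 and Gabra2 varied more between libraries in the knock-out group, with coefficients of variation of 20.9% and 22.8%, than in the wild-type group, with 9.65% and 8.08%, and these spreads were not tested against each other.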
